A study of Homo sapiens with 12 samples.

Results

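The 44 genes described here encode proteins of the G2 phase and mitosis: the cyclins and kinases that drive a cell into division, the spindle and kinetochore proteins that move the chromosomes, and the factors that part the sister chromatids and the daughter cells. They were listed by name and found by Entrez gene number among the 23922 genes of the deposited tables. The list was drawn up with earlier results of these data known. All 44 were counted in each of the 12 libraries, with 33 to 6249 expected counts per gene and library, and all 44 passed the filter on low counts that left 18101 genes. The study followed H9 cells, an established human embryonic stem cell line, as they were grown toward hepatocytes, and addressed how thyroid hormones act during that development. Total RNA was sequenced in 2 libraries of each of 6 groups: day 19 cells given 30 nM T4, 30 nM T3 or 0.1% DMSO, and day 7 cells given 30 nM T4, 30 nM T3 or 0.1% DMSO. T4 is thyroxine, the main circulating hormone, and T3 is triiodothyronine, which lacks an outer-ring iodine that T4 carries and binds the nuclear thyroid hormone receptors more tightly. The labels call day 19 cells hepatocytes and day 7 cells hepatoblasts, the progenitors of hepatocytes and bile duct cells. Whether the 2 libraries of each group are separate cultures is not stated, so the p-values rest on a spread between libraries that may be technical. They also do not give the start or length of hormone treatment, nor whether hormone-treated cells received DMSO.

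In a dividing cell these genes are transcribed late in the cycle, from G2 to mitosis, and are held off in G1 and in cells that have left the cycle. Many of their promoters carry a CHR element, the cell cycle genes homology region, and CCAAT boxes, which bind NF-Y. The CHR is bound by the MuvB core, which works in the repressive DREAM complex in resting cells and with B-MYB and FOXM1 in G2. Stem cells and fetal hepatoblasts divide rapidly, whereas mature hepatocytes rarely do. The RNA of a bulk sample cannot show whether fewer cells were dividing or each dividing cell held less of an RNA, and these cannot be told apart here.

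Totals were 18363549 to 19306181 expected counts per library over all genes. The genes lowest at day 19 had few counts per library, 40 to 84 for NDC80 among them, so counting error bears on their values. The 14 hepatoblast and hepatocyte markers, AFP among them, summed to 8479.7 and 9481 CPM (counts per 1e+06 counts, TMM-scaled) with T4, 3420.3 and 4690.5 CPM with T3 and 66294 and 70164 CPM in DMSO at day 19. At day 7 the sums were 4317 and 4242 CPM with T4, 4150.3 and 4029.7 CPM with T3 and 5399.5 and 5429 CPM in DMSO. None of the 14 was at 0 in any group. ALB, the albumin gene and the defining product of hepatocytes, was at 17.8 and 20.8 CPM in DMSO at day 19 and 1.30 and 0.962 CPM in DMSO at day 7, low beside AFP, the fetal serum protein gene, at 32931 and 35468 CPM in DMSO at day 19. The pluripotency factor gene POU5F1 was still at 168 and 176 CPM in DMSO at day 7. The labels are therefore used only as names of the groups.

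Summed, the 44 genes were high at day 7 and low at day 19 in every treatment, though ESPL1 did not pass the test between the days in DMSO. Their summed level was 737 and 743 CPM with T4, 593 and 579.9 CPM with T3 and 824 and 758 CPM in DMSO at day 19. At day 7 it was 3323 and 3338 CPM with T4, 3447 and 3479.9 CPM with T3 and 2888 and 2848 CPM in DMSO. The order of the treatments thus differed between the days: T3 libraries held the most of these RNAs at day 7 and the least at day 19. Of the 44 genes, 35 had their highest group mean with T3 at day 7 and the other 9 with T4 at day 7, while 41 had their lowest with T3 at day 19.

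**Figure D1:**
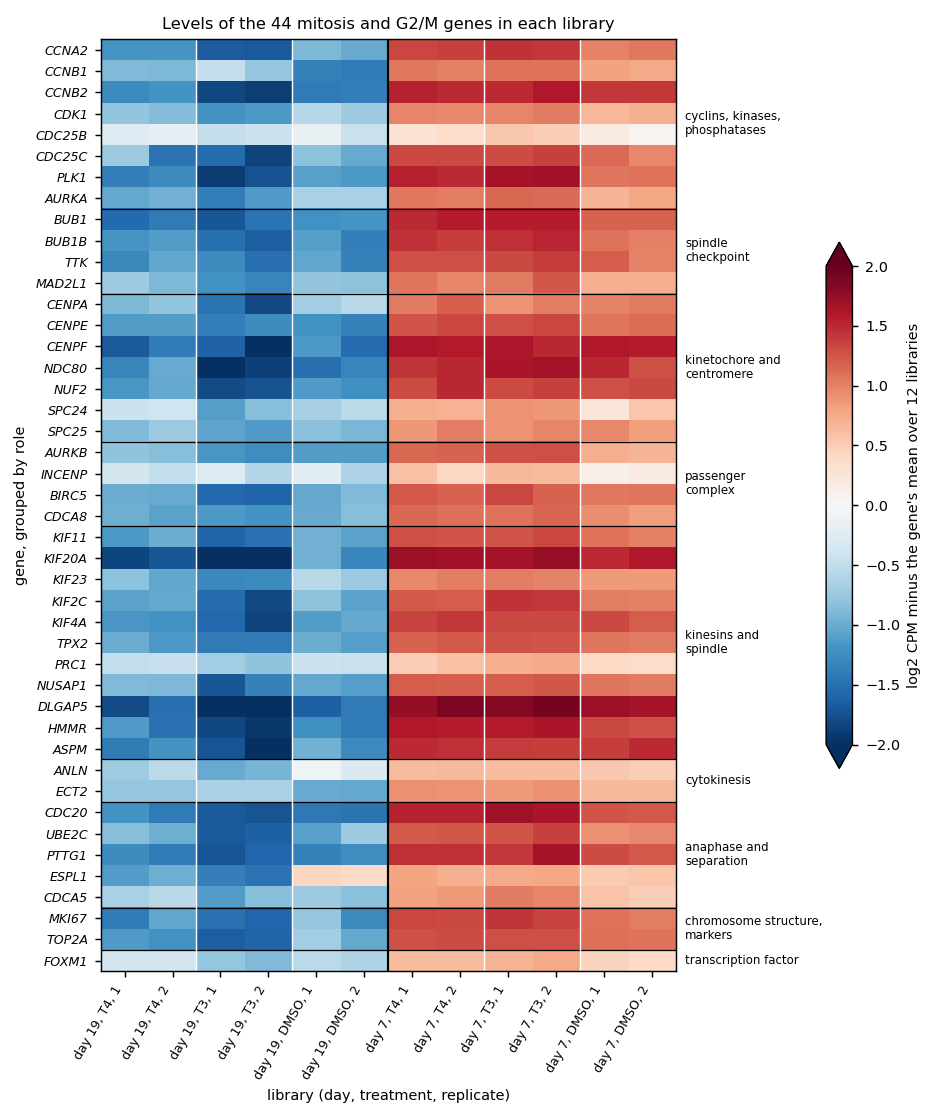
Level of the 44 genes in each of the 12 libraries, as log2 CPM minus the gene's mean over the libraries, with colours limited to 2 either way; genes run down the page by role and libraries across it, day 19 (T4, T3, DMSO) left of day 7 (T4, T3, DMSO). All 44 genes are lower in all 6 day 19 libraries than in all 6 day 7 libraries, though ESPL1 did not pass the test in DMSO. The share of all tested genes with such a separation was not counted. For most genes the T3 columns are the highest at day 7 and the lowest at day 19.

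Promoters of 38 of the 44 genes are held in the RefSeq table for GRCh38.p14 used here, each from 250 bases before to 50 after the gene's start. The stretches printed are the 130 bases before the start, 5′ to 3′, all on the plus strand, with capitals for a CHR element (TTTGAA or TTCGAA) or a CCAAT box (CCAAT, or ATTGG on the other strand). They were chosen as those of CCNB2 and PLK1, with a CHR just before the start and downstream of every CCAAT match, that of CDC20, with a CHR between CCAAT boxes, and those of the 3 genes that moved furthest from the rest under T3 at day 19, ESPL1, ECT2 and CCNB1. CCNB2 (chr15:59105016-59105145) encodes cyclin B2, PLK1 (chr16:23678759-23678888) a kinase of mitotic entry and spindle assembly, and CDC20 (chr1:43358851-43358980) an activator of the anaphase promoting complex. ESPL1 (chr12:53268169-53268298) encodes separase, which cuts cohesin at anaphase, ECT2 (chr3:172750596-172750725) an exchange factor that directs the cleavage furrow, and CCNB1 (chr5:69167020-69167149) cyclin B1, the partner of CDK1. In ECT2 the last capitals begin a CCAAT box that runs across the start.
CCNB2: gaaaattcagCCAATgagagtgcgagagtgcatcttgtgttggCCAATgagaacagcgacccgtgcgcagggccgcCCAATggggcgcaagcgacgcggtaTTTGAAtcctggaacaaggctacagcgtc
PLK1: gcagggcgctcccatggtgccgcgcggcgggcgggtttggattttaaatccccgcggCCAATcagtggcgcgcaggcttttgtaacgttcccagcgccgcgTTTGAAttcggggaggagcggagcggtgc
CDC20: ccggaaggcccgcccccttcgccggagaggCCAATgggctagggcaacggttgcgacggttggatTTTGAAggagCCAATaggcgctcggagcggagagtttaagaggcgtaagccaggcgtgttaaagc
ESPL1: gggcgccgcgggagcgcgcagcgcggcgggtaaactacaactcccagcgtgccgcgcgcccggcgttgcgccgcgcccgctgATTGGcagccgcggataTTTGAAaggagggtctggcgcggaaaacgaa
ECT2: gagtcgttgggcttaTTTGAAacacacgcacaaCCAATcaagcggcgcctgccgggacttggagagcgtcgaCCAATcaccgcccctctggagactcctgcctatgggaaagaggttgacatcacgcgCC
CCNB1: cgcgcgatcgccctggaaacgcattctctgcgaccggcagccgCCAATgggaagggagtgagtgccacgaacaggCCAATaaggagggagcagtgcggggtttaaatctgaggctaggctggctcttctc

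A CHR element on either strand was found in 28 of the 38 promoters (73.7%), against 1646 of 13908 promoters of tested genes (11.8%), 4539 of all 27305 promoters (16.6%) and 2 of 37 promoters of DNA replication and S phase genes (5.41%). A CCAAT box on either strand was found in 29 of the 38 (76.3%), against 35.8% of tested genes, 35.7% of all promoters and 56.8% of the replication genes. Both elements were present in 23 of the 38 (60.5%), against 4.95%, 6.58% and 5.41% of those same sets. The 2 motifs overlap in the CDCA8 and MKI67 promoters. The CHR lay on the gene's strand between base -60 and base 30 in 21 of the 38 (55.3%), against 1.88% of tested genes and 2.6% of all promoters, a window chosen after the positions were seen. The 10 promoters without a CHR match were those of AURKB, CCNA2, CCNB1, CDC25B, CDC25C, CENPE, KIF20A, KIF2C, PTTG1 and SPC24, and their lack of a match says only that these letters are not in this window. The half-site letters AGGTCA of a thyroid hormone receptor element, searched on both strands, were found in 3 of the 38 (7.89%), against 10.7% of tested genes and 13.9% of all promoters. An E2F site spelled TTTGGCGC or TTTCGCGC, on both strands, was in 2 of the 38 (5.26%), against 1.78% of tested genes, 1.18% of all promoters and 11 of the 37 replication genes (29.7%). Of the 28 genes with a CHR match, 24 were lower and 1 was higher with T3 at day 19, with a median log2 fold change of -0.52. Of the 10 without one, 6 fell and 1 rose, with a median of -0.37, where 27.3% of all tested genes were lower and 25.1% higher. The difference between these sets was not tested.

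**Figure D2:**
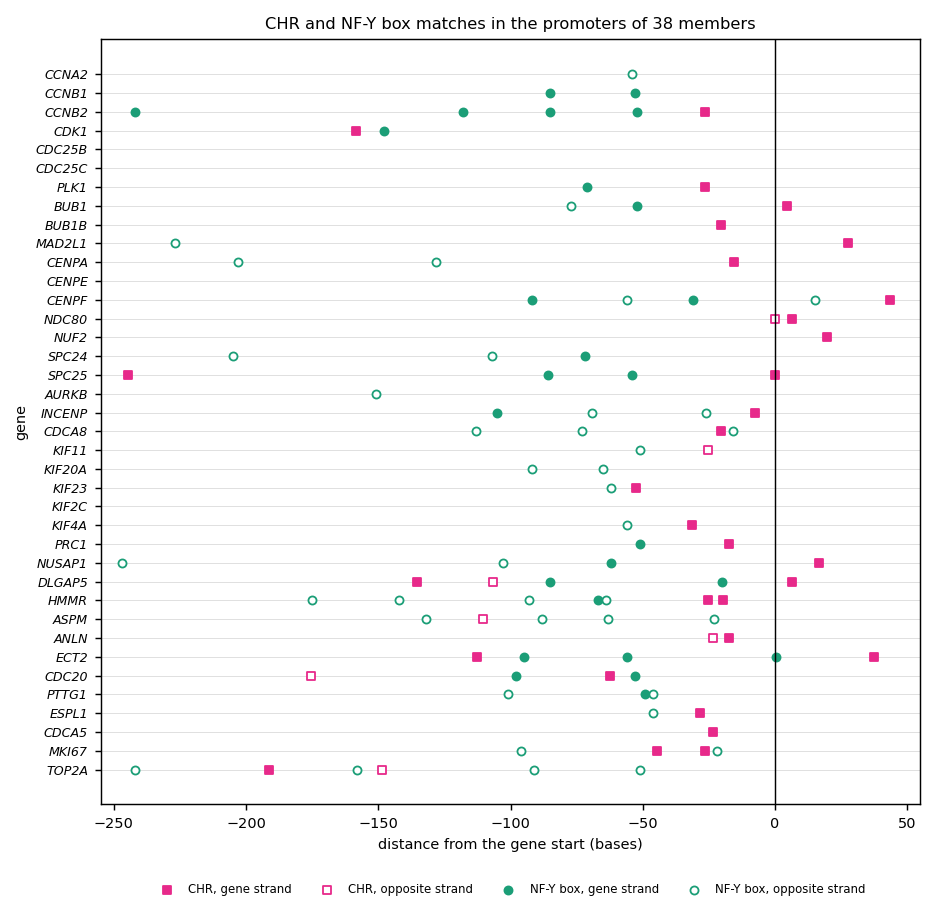
Position of CHR and CCAAT matches, in bases from the gene's start, in the 38 promoters with an entry; each line is 1 promoter, squares are CHR and circles CCAAT (NF-Y box) matches, filled on the gene's strand and open on the other. On the gene's strand, 21 promoters have a CHR match between base -60 and base 30, 14 of them before the start, 6 after it and 1 across it.

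In DMSO, 43 of the 44 genes fell at day 19 relative to day 7, where 34.9% of all tested genes fell and 37.6% rose (72.4% together). Their median log2 fold change was -2.0, while the median of all tested genes was 0.00, and 38 of the 43 fell at least 2-fold. The libraries of the days did not overlap for any of the 43. The same held for every called gene of the 44 in each pairwise comparison, so it adds no support beyond the call. The share without overlap over all tested genes was not counted. Every role took part: 8 of 8 cyclins, kinases and phosphatases, 4 of 4 spindle checkpoint genes, 7 of 7 kinetochore and centromere genes, 4 of 4 genes of the chromosomal passenger complex, 11 of 11 kinesins and spindle proteins, 2 of 2 cytokinesis genes, 4 of 5 anaphase genes, both MKI67 and TOP2A, and FOXM1. The medians by role ran between -2.37 for kinetochore genes and -0.99 for FOXM1, the transcription factor of the list.

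The deepest declines were those of a spindle protein, a kinetochore protein and a cyclin. DLGAP5, which stabilises kinetochore microtubules, had 6.48 and 7.53 CPM at day 19 and 66.1 and 64.3 CPM at day 7 in DMSO, a log2 fold change of -3.22 (SE 0.10, edgeR adjusted p = 5.98e-13), or 9.30-fold. CENPF, a large kinetochore and nuclear matrix protein that builds up in G2, had 17.8 and 13.6 CPM at day 19 and 119.6 and 118 CPM at day 7, a change of -2.92 (SE 0.12, edgeR adjusted p = 1.61e-11). CCNB2 had 12.4 and 12.8 CPM at day 19 and 87.7 and 87.9 CPM at day 7, a change of -2.81 (SE 0.07, edgeR adjusted p = 1.07e-13). In all of these genes the day 19 libraries lay far below the day 7 libraries.

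Among the cyclins and kinases, CCNB1 had 27.4 and 26.6 CPM at day 19 and 123 and 119 CPM at day 7 (log2 fold change -2.16, SE 0.08, edgeR adjusted p = 6.06e-12), and values in brackets after levels are log2 fold changes from here on. CDK1, the kinase that cyclin B activates, had 21.5 and 19.3 CPM at day 19 and 50.6 and 52.1 CPM at day 7 (-1.33, SE 0.07, edgeR adjusted p = 2.47e-10), a shallower fall than that of its cyclins. PLK1 had 16.5 and 16 CPM at day 19 and 74.1 and 74.6 CPM at day 7 (-2.19, SE 0.07, edgeR adjusted p = 8.76e-13). AURKB, the kinase of the chromosomal passenger complex that corrects faulty kinetochore attachments, had 13.1 and 13.1 CPM at day 19 and 47.1 and 45.7 CPM at day 7 (-1.82, SE 0.07, edgeR adjusted p = 6.99e-12). CDC20 had 16.6 and 16.1 CPM at day 19 and 106 and 104 CPM at day 7 (-2.68, SE 0.07, edgeR adjusted p = 2.34e-13). The proliferation marker MKI67, which coats mitotic chromosomes, had 34.5 and 24.4 CPM at day 19 and 125 and 119 CPM at day 7 (-2.05, SE 0.12, edgeR adjusted p = 8.19e-10), with its day 19 libraries further apart than those of the kinases. TOP2A, the topoisomerase that untangles sister chromatids, had 76.1 and 60.8 CPM at day 19 and 264 and 262 CPM at day 7 (-1.94, SE 0.08, edgeR adjusted p = 1.53e-11). FOXM1 had 29.4 and 28.1 CPM at day 19 and 57.9 and 56.2 CPM at day 7 (-0.99, SE 0.06, edgeR adjusted p = 2.54e-09), so the factor kept a larger share of its RNA than the genes just named.

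The genes with the smallest changes were ESPL1, CDC25B and INCENP. ESPL1 had 36.8 and 35.9 CPM at day 19 and 39.6 and 40.4 CPM at day 7 in DMSO, a log2 fold change of -0.14 (SE 0.07, edgeR adjusted p = 0.0731) with a 95% interval of -0.28 to 0.00, and was the gene of the 44 that did not pass the test. CDC25B, a phosphatase that activates CDK1, had 23.0 and 18.8 CPM at day 19 and 28.9 and 26.4 CPM at day 7 (-0.40, SE 0.09, edgeR adjusted p = 0.0011). INCENP, the scaffold of the passenger complex, had 27.8 and 21.3 CPM at day 19 and 35.4 and 36.5 CPM at day 7 (-0.55, SE 0.11, edgeR adjusted p = 0.000529). Scaling by total counts alone lowered the median of all tested genes by 0.40 in this comparison, and with it, as with the authors' FPKM, all 44 genes fell.

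**Figure D3:**
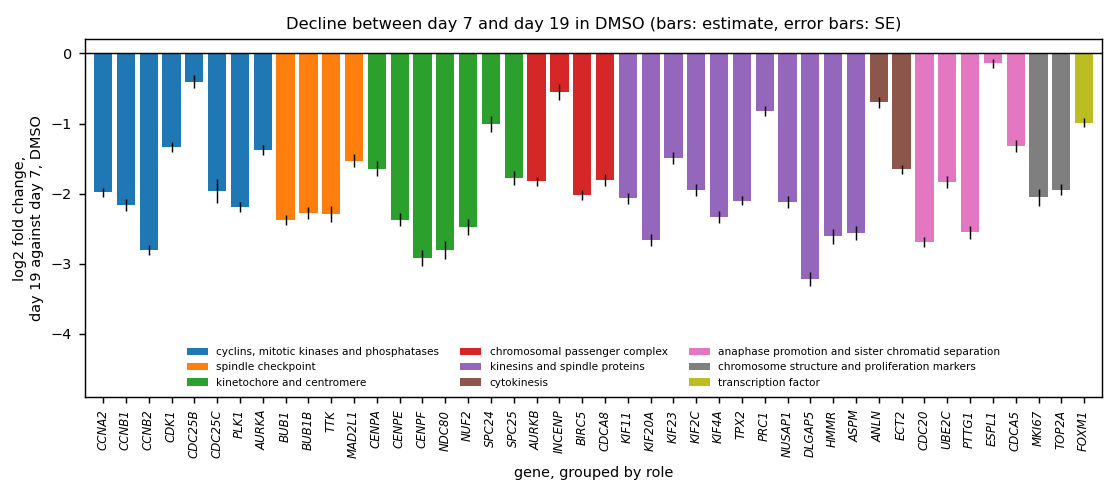
Log2 fold change of each of the 44 genes, day 19 over day 7, in DMSO, with bars for the estimate, error bars for its SE in the edgeR fit (2 libraries per group) and genes grouped by role and coloured by it. All 44 bars lie below 0, and the gene that did not pass the test was ESPL1, at -0.14.

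Per unit of length, the levels of the 44 genes also differed widely among themselves. In DMSO at day 7 the authors' FPKM, summed per gene, was highest for PTTG1, which encodes securin, the inhibitor of separase, at 108 and 103. UBE2C, the ubiquitin-conjugating enzyme of the anaphase promoting complex, was at 86.3 and 90.2 FPKM, and CENPE, a kinetochore motor, was lowest at 4.03 and 4.17 FPKM. With T3 at day 19 the gene with the highest FPKM was CCNB1, at 20.6 and 17.2, ahead of UBE2C at 11.3 and 11.9 and PTTG1 at 10.5 and 11.7. In DMSO at day 19 UBE2C led at 16.3 and 21.0 FPKM and CCNB1 was at 10.8 and 10.4 FPKM.

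The fall between the days was present in hormone-treated cells too, for 44 of 44 genes with T3 and 44 of 44 with T4. Among all tested genes 37.9% fell and 35.2% rose between the days with T3 (73.1% together), and 36.4% fell and 35.5% rose with T4 (71.9% together). The median log2 fold change of the 44 genes was -2.79 with T3 and -2.26 with T4. With T3, KIF20A, a kinesin needed for cytokinesis, had 6.23 and 6.4 CPM at day 19 and 83.3 and 87.4 CPM at day 7 (-3.76, SE 0.10, edgeR adjusted p = 1.32e-13). DLGAP5 had 4.43 and 4.30 CPM at day 19 and 71.7 and 76.0 CPM at day 7 with T3 (-4.08, SE 0.10, edgeR adjusted p = 9.51e-14). NDC80, which holds microtubules at the kinetochore, had 2.40 and 2.62 CPM at day 19 and 29.6 and 30.5 CPM at day 7 with T3 (-3.58, SE 0.13, edgeR adjusted p = 5.80e-12). Each of these day 19 levels was a small fraction of the day 7 level. The shallowest falls with T3 were those of CDC25B, at 18.2 and 18.9 CPM at day 19 and 36.9 and 36.0 CPM at day 7 (-0.97, SE 0.09, edgeR adjusted p = 1.63e-07), and INCENP, at 26.8 and 21.6 CPM at day 19 and 51.0 and 50.4 CPM at day 7 (-1.07, SE 0.11, edgeR adjusted p = 5.88e-07). PRC1, which bundles the microtubules of the spindle midzone, had 22.1 and 20.5 CPM at day 19 and 59.5 and 60.3 CPM at day 7 with T3 (-1.49, SE 0.07, edgeR adjusted p = 3.28e-11).

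With T4, KIF20A had 7.36 and 7.96 CPM at day 19 and 85.3 and 84.2 CPM at day 7 (-3.47, SE 0.09, edgeR adjusted p = 2.27e-13). DLGAP5 had 5.82 and 7.10 CPM at day 19 and 68.3 and 74.6 CPM at day 7 with T4 (-3.47, SE 0.10, edgeR adjusted p = 2.58e-13), and CENPF 12.4 and 14.9 CPM at day 19 and 121 and 119 CPM at day 7 (-3.13, SE 0.12, edgeR adjusted p = 8.19e-12). These genes stood at the low end under T4 as KIF20A and DLGAP5 did under T3. At the other end with T4 were CDC25B, at 21.2 and 22.5 CPM at day 19 and 31.1 and 32.8 CPM at day 7 (-0.55, SE 0.09, edgeR adjusted p = 6.17e-05), and INCENP, at 25.1 and 23.2 CPM at day 19 and 48.6 and 43.5 CPM at day 7 (-0.93, SE 0.11, edgeR adjusted p = 2.76e-06). FOXM1 had 33.2 and 33.0 CPM at day 19 and 66.1 and 66.4 CPM at day 7 with T4 (-1.0, SE 0.06, edgeR adjusted p = 1.60e-09). ESPL1, which did not pass in DMSO, fell by 2.18 on the log2 scale with T3 and by 1.79 with T4.

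At day 7, T3 raised 28 of the 44 genes and lowered none, at a background of 9.43% of all tested genes higher and 6.54% lower. The changes were small: the median log2 fold change was 0.27, no gene reached 2-fold, and 41 of the 44 estimates were above 0. By role, 6 of 8 cyclins, kinases and phosphatases rose, as did 3 of 4 checkpoint genes, 4 of 4 passenger complex genes, 5 of 5 anaphase genes, 5 of 11 kinesins and spindle proteins, 1 of 2 cytokinesis genes, 2 of 7 kinetochore genes, MKI67 and FOXM1. The kinetochore genes had a median of 0.04, near the median of 0.01 of all tested genes.

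PLK1 had 111 and 113 CPM with T3, against 74.1 and 74.6 CPM in DMSO, a log2 fold change of 0.60 (SE 0.06, edgeR adjusted p = 6.24e-06). AURKB had 68.8 and 69.2 CPM with T3, against 47.1 and 45.7 CPM in DMSO (0.57, SE 0.06, edgeR adjusted p = 1.01e-05), and INCENP 51.0 and 50.4 CPM, against 35.4 and 36.5 CPM (0.49, SE 0.10, edgeR adjusted p = 0.00517). These were the largest increases, and for each the T3 libraries lay above both DMSO libraries. CDC20 had 145 and 139 CPM with T3, against 106 and 104 CPM in DMSO (0.43, SE 0.06, edgeR adjusted p = 0.000188). CDK1 had 63.1 and 65.6 CPM with T3, against 50.6 and 52.1 CPM in DMSO (0.33, SE 0.06, edgeR adjusted p = 0.00217), and FOXM1 68.7 and 72.5 CPM, against 57.9 and 56.2 CPM (0.31, SE 0.06, edgeR adjusted p = 0.00234). CDC20, CDK1 and FOXM1 likewise showed no overlap between the treatments, which held for every called gene and adds no support beyond the calls. CCNB1 had 149 and 148 CPM with T3, against 123 and 119 CPM in DMSO (0.30, SE 0.07, edgeR adjusted p = 0.00904), and MKI67 158 and 150.2 CPM, against 125 and 119 CPM (0.34, SE 0.10, edgeR adjusted p = 0.0399). TOP2A had 301 and 303 CPM with T3, against 264 and 262 CPM in DMSO (0.20, SE 0.07, edgeR adjusted p = 0.0796), and did not pass.

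At the low end, ASPM, which organises spindle poles, had 51.0 and 50.3 CPM with T3, against 50.5 and 54.4 CPM in DMSO (-0.05, SE 0.08, edgeR adjusted p = 0.724). CENPA, the centromeric histone, had 21.5 and 23.6 CPM with T3, against 23.1 and 23.7 CPM in DMSO (-0.05, SE 0.10, edgeR adjusted p = 0.777), and CENPF 121 and 112 CPM, against 119.6 and 118 CPM (-0.02, SE 0.10, edgeR adjusted p = 0.909). None of these passed the test, and their estimates lay below 0. Of the 28 genes, 13 stayed called without each of the 4 libraries of the comparison: CCNA2, CDK1, PLK1, AURKA, BUB1, BUB1B, MAD2L1, AURKB, KIF2C, PRC1, CDC20, CDCA5 and FOXM1. CCNB1, MKI67 and ESPL1 lost their calls without any one of the 4 (adjusted p 7.84e-06 to 0.0907, 5.01e-06 to 0.286 and 0.00634 to 0.194 over all alternatives), and INCENP lost its call without DMSO library 1 (4.96e-06 to 0.0736). The number of genes that rose was 14 without DMSO library 1, 16 without DMSO library 2 and 17 without either T3 library.

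T4 at day 7 raised 15 of the 44 genes and lowered none, at a background of 3.9% of all tested genes higher and 2.52% lower (6.42% together). All 44 estimates were above 0, with a median of 0.21 on the log2 scale. The DMSO libraries are those used for T3. The 15 comprised 5 cyclins, kinases and phosphatases, 3 checkpoint genes, 2 passenger complex genes, 3 anaphase genes, 1 cytokinesis gene and FOXM1, and no kinesin or kinetochore gene.

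AURKB had 62.7 and 64.3 CPM with T4, against 47.1 and 45.7 CPM in DMSO (0.45, SE 0.06, edgeR adjusted p = 0.000255). PLK1 had 102 and 98.9 CPM with T4, against 74.1 and 74.6 CPM in DMSO (0.43, SE 0.06, edgeR adjusted p = 0.000341). BUB1B, which encodes the checkpoint protein BUBR1, had 72.5 and 69.8 CPM with T4, against 56.5 and 53.8 CPM in DMSO (0.37, SE 0.07, edgeR adjusted p = 0.0044). For all of these the T4 libraries lay above the DMSO libraries, as for every called gene of this comparison. CDC20 had 129 and 129 CPM with T4 (0.30, SE 0.06, edgeR adjusted p = 0.00749), CDK1 62.9 and 62.5 CPM (0.29, SE 0.06, edgeR adjusted p = 0.0108), CCNB1 145 and 142 CPM (0.25, SE 0.07, edgeR adjusted p = 0.0469) and FOXM1 66.1 and 66.4 CPM (0.21, SE 0.06, edgeR adjusted p = 0.04), all above the DMSO values given with T3. MKI67, at 148 and 146 CPM with T4 (0.27, SE 0.10, edgeR adjusted p = 0.154), and TOP2A, at 299 and 305 CPM (0.20, SE 0.07, edgeR adjusted p = 0.127), did not pass. The smallest estimates were those of CENPF, at 121 and 119 CPM with T4 and 119.6 and 118 CPM in DMSO (0.01, SE 0.10, edgeR adjusted p = 0.961), ASPM, at 54.4 and 53.2 CPM with T4 and 50.5 and 54.4 CPM in DMSO (0.04, SE 0.08, edgeR adjusted p = 0.861), and the kinetochore gene SPC25, at 27.0 and 30.1 CPM with T4 and 28.8 and 26.6 CPM in DMSO (0.04, SE 0.08, edgeR adjusted p = 0.83). CCNA2, PLK1 and AURKB were the genes that stayed called without each library of the comparison. Without 1 library, 4 or 5 of the 44 rose in place of 15 (4 without either T4 library, 5 without either DMSO library), and CCNB1, CDK1, CDC20 and FOXM1 lost their calls without any one of them, with adjusted p over all alternatives of 9.30e-05 to 0.284, 0.000303 to 0.134, 2.77e-05 to 0.106 and 0.00351 to 0.271. BUB1B lost its call without DMSO library 2 or T4 library 1 (2.42e-05 to 0.0908).

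Between T4 and T3 at day 7, 0 of the 44 genes passed the edgeR test, where 0.365% of all tested genes did (0.0387% higher and 0.326% lower with T4). At an unadjusted p under 0.05, 7 were lower with T4 by edgeR, 2 by DESeq2 and 4 by limma on log2(FPKM + 0.1). The median log2 fold change was -0.05. Its extremes were KIF2C, a microtubule-depolymerising kinesin, at 73.2 and 72.8 CPM with T4 and 85.0 and 84.1 CPM with T3 (-0.21, 95% interval -0.36 to -0.07), PRC1 at 50.3 and 53.5 CPM with T4 and 59.5 and 60.3 CPM with T3 (-0.21, -0.33 to -0.08) and CDC25B at 31.1 and 32.8 CPM with T4 and 36.9 and 36.0 CPM with T3 (-0.19, -0.37 to -0.01). At the upper end were CENPA, at 23.8 and 26.6 CPM with T4 and 21.5 and 23.6 CPM with T3 (0.16, -0.04 to 0.36), ASPM (0.09, -0.08 to 0.26) and the kinetochore gene NUF2, at 22.0 and 25.4 CPM with T4 and 22.1 and 23.0 CPM with T3 (0.07, -0.12 to 0.27).

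Markers of pluripotent cells moved in the same libraries at day 7. The 10 pluripotency genes summed to 2662 and 2696 CPM with T4, 3240.3 and 3209 CPM with T3 and 1755 and 1779 CPM in DMSO, none was at 0, and 9 of the 10 rose with each hormone. Hepatoblast and hepatocyte markers fell, 6 of 14 with T3 and 4 of 14 with T4, and none rose. Of the 8 endoderm markers 7 were tested, and 5 fell with T3 and 4 with T4. Endothelial markers fell too, 6 of 7 with each hormone. Among all tested genes 9.43% rose and 6.54% fell with T3 at day 7, and 3.9% rose and 2.52% fell with T4. The part of these shifts in the levels of the mitotic genes was not tested.

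At day 19, T3 lowered 35 of the 44 genes and raised 2, CCNB1 and ECT2. Among all tested genes 27.3% fell and 25.1% rose. The median log2 fold change was -0.51, against -0.03 for all tested genes, and 52.3% of them were called in either direction. The libraries of the treatments overlapped for none of the 37 called genes, which adds no support beyond the calls. All 11 kinesins and spindle proteins fell, with a median of -0.64, as did 6 of 8 cyclins, kinases and phosphatases, 3 of 4 checkpoint genes, 5 of 7 kinetochore genes, 2 of 4 passenger complex genes, 4 of 5 anaphase genes, 1 of 2 cytokinesis genes, MKI67, TOP2A and FOXM1.

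ESPL1 fell furthest and was the gene that fell at least 2-fold. It had 10.6 and 9.83 CPM with T3, against 36.8 and 35.9 CPM in DMSO, a log2 fold change of -1.83 (SE 0.08, edgeR adjusted p = 1.38e-10), or 3.56-fold. The T3 libraries lay close together and far below DMSO. CENPA had 4.19 and 3.32 CPM with T3, against 7.15 and 7.83 CPM in DMSO (-1.0, SE 0.15, edgeR adjusted p = 4.66e-05), and KIF20A 6.23 and 6.4 CPM, against 13.5 and 10.6 CPM (-0.93, SE 0.12, edgeR adjusted p = 1.59e-05). PLK1 had 9.46 and 10.5 CPM with T3, against 16.5 and 16 CPM in DMSO (-0.70, SE 0.09, edgeR adjusted p = 7.67e-06), and CDK1 14.0 and 14.4 CPM, against 21.5 and 19.3 CPM (-0.52, SE 0.08, edgeR adjusted p = 7.78e-05). Both kinases were thus lower with T3 at day 19, where both had been higher at day 7. TOP2A had 39.4 and 40.7 CPM with T3, against 76.1 and 60.8 CPM in DMSO (-0.77, SE 0.09, edgeR adjusted p = 2.48e-06), and MKI67 20.8 and 19.6 CPM, against 34.5 and 24.4 CPM (-0.54, SE 0.14, edgeR adjusted p = 0.00427). CDC20 had 13.9 and 13.4 CPM with T3, against 16.6 and 16.1 CPM in DMSO (-0.26, SE 0.09, edgeR adjusted p = 0.0256), and FOXM1 24.9 and 23.3 CPM, against 29.4 and 28.1 CPM (-0.25, SE 0.07, edgeR adjusted p = 0.00699). AURKB, at 12.6 and 12.0 CPM with T3 and 13.1 and 13.1 CPM in DMSO, did not pass (-0.09, SE 0.08, edgeR adjusted p = 0.476, 95% interval -0.26 to 0.09).

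CCNB1 went the other way from its partner kinase. It had 50.4 and 41.0 CPM with T3, against 27.4 and 26.6 CPM in DMSO, a log2 fold change of 0.76 (SE 0.08, edgeR adjusted p = 2.84e-06), or 1.69-fold, and the lower T3 library was still well above both DMSO libraries. Cyclin B2 did not follow: CCNB2 had 9.34 and 8.90 CPM with T3, against 12.4 and 12.8 CPM in DMSO (-0.46, SE 0.09, edgeR adjusted p = 0.000677). ECT2 had 22.4 and 22.3 CPM with T3, against 17.6 and 17.3 CPM in DMSO (0.36, SE 0.07, edgeR adjusted p = 0.000582). INCENP, next in order, had 26.8 and 21.6 CPM with T3, against 27.8 and 21.3 CPM in DMSO (-0.02, SE 0.12, edgeR adjusted p = 0.917) and did not pass. The calls of CCNB1, ECT2, ESPL1, CENPA and KIF20A held under every alternative, and 25 of the 37 calls held without each library of the comparison. CDC20 lost its call without any one of the 4 libraries (adjusted p 0.0139 to 0.142 over all alternatives), MKI67 without DMSO library 1 (8.96e-05 to 0.0958) and FOXM1 without T3 library 2 (0.00699 to 0.102).

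**Figure D4:**
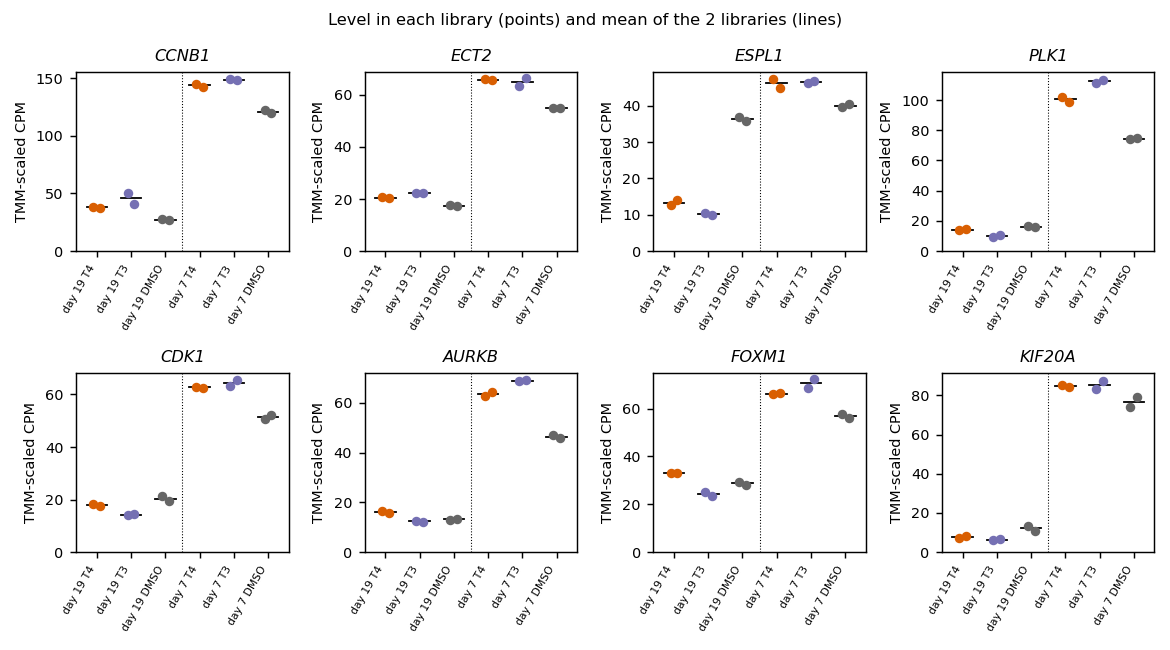
CPM of CCNB1, ECT2, ESPL1, PLK1, CDK1, AURKB, FOXM1 and KIF20A in each library (points), with group means (lines), for day 19 left of day 7 and T4, T3 and DMSO in that order within a day. CCNB1 and ECT2 stand highest with T3 among the day 19 groups, ESPL1 is low with both hormones at day 19 alone, and PLK1, CDK1 and KIF20A are lowest with T3 at day 19.

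T4 at day 19 changed fewer of the genes: 8 fell and 4 rose, at a background of 21.9% of all tested genes lower and 21% higher. Those shares were no larger than the background, and the split depended on the scaling, with 8 higher and 3 lower by total counts alone, so no direction is given for the list. The median log2 fold change was -0.04. ESPL1 had 12.7 and 14.0 CPM with T4, against 36.8 and 35.9 CPM in DMSO (-1.45, SE 0.08, edgeR adjusted p = 2.17e-09), or 2.73-fold lower, the single change of at least 2-fold. KIF20A had 7.36 and 7.96 CPM with T4, against 13.5 and 10.6 CPM in DMSO (-0.66, SE 0.12, edgeR adjusted p = 0.000412). ANLN, the anillin that scaffolds the contractile ring, had 34.8 and 39.6 CPM with T4, against 54.0 and 46.6 CPM in DMSO (-0.44, SE 0.08, edgeR adjusted p = 0.000444). The T4 libraries of all of these lay below DMSO, and no called gene of this comparison had overlapping libraries. The other genes that fell were AURKA, TOP2A, BUB1, KIF23 and CCNA2, by 0.22 to 0.34 on the log2 scale.

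CCNB1 had 38.1 and 37.6 CPM with T4, against 27.4 and 26.6 CPM in DMSO (0.49, SE 0.09, edgeR adjusted p = 0.000342), and ECT2 20.7 and 20.5 CPM, against 17.6 and 17.3 CPM (0.24, SE 0.07, edgeR adjusted p = 0.0142). AURKB had 16.3 and 15.7 CPM with T4, against 13.1 and 13.1 CPM in DMSO (0.29, SE 0.08, edgeR adjusted p = 0.00789), and FOXM1 33.2 and 33.0 CPM, against 29.4 and 28.1 CPM (0.21, SE 0.07, edgeR adjusted p = 0.0231). These 4 were the genes that rose. Their libraries did not overlap, which held for every called gene and adds no support beyond the calls. TOP2A had 56.3 and 53.4 CPM with T4, against 76.1 and 60.8 CPM in DMSO (-0.32, SE 0.08, edgeR adjusted p = 0.00605). PLK1, at 13.7 and 14.6 CPM with T4 (-0.20, SE 0.08, edgeR adjusted p = 0.0616), CDK1, at 18.4 and 17.6 CPM (-0.18, SE 0.08, edgeR adjusted p = 0.0855), MKI67, at 22.4 and 28.5 CPM (-0.21, SE 0.13, edgeR adjusted p = 0.235), CDC20, at 19.5 and 16.7 CPM (0.15, SE 0.09, edgeR adjusted p = 0.185), and NDC80, at 3.88 and 4.77 CPM with T4 and 3.39 and 3.83 CPM in DMSO (0.26, SE 0.17, edgeR adjusted p = 0.231), did not pass. CCNB1, ESPL1, KIF20A and ANLN kept their calls under every alternative. AURKB lost its call without T4 library 1 (adjusted p 4.24e-05 to 0.0607 over all alternatives), ECT2 without DMSO library 2 or T4 library 1 (0.000472 to 0.076), FOXM1 without DMSO library 2 or either T4 library (0.000668 to 0.122) and TOP2A without DMSO library 1 (6.60e-05 to 0.17), and without T4 library 1 the number called was 7. AURKA kept its call without each library but lost it by total counts alone, and BUB1, KIF23 and CCNA2 lost theirs without DMSO library 1, among others (0.0133 to 0.243, 0.0146 to 0.255 and 0.0212 to 0.34).

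**Figure D5:**
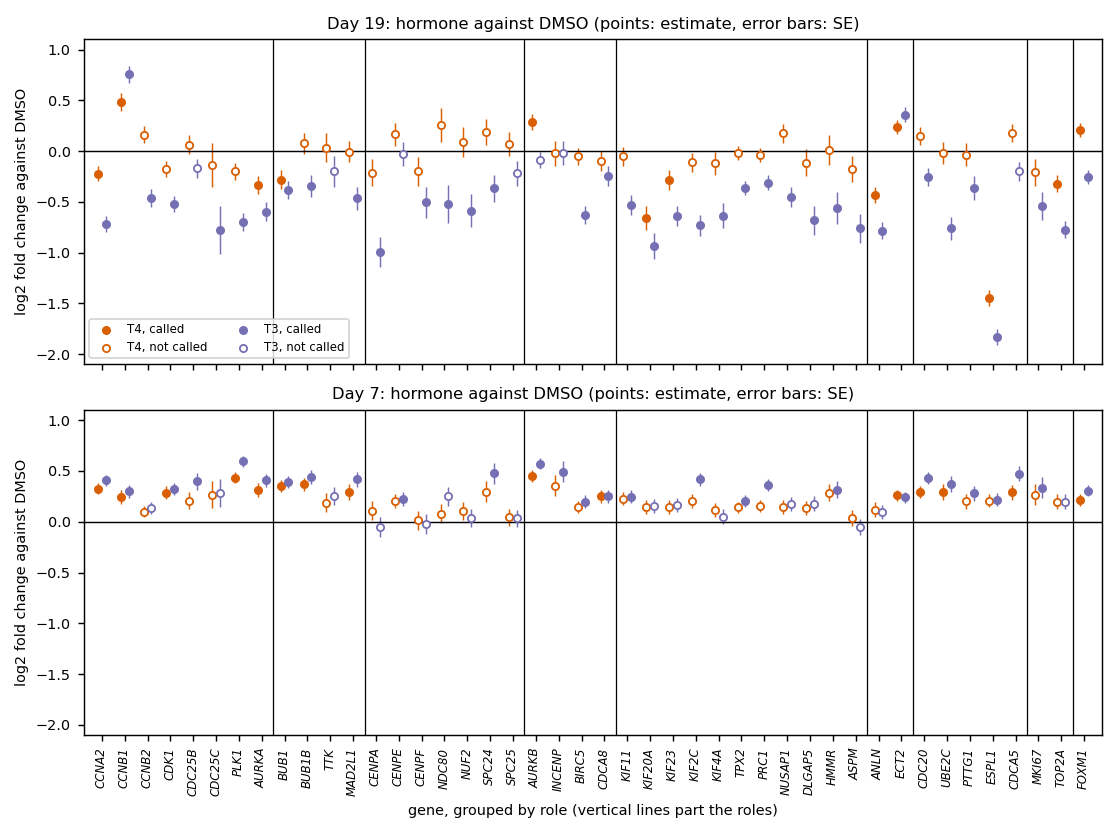
Log2 fold change over DMSO of each of the 44 genes at day 19 (top) and day 7 (bottom), with the T4 point left of the T3 point and error bars for the SE; filled points passed the test and open points did not. With T3 most points lie below 0 at day 19 and above 0 at day 7, with CCNB1, ECT2 and ESPL1 standing apart at day 19, where ESPL1 is also the lowest point with T4.

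Set against T3 directly at day 19, T4 left 29 of the 44 genes higher and 1 lower, where 7.42% of all tested genes were higher with T4 and 8.31% lower. The median log2 fold change was 0.40, and 10 of 11 kinesins and spindle proteins were among the 29. T4 and T3 were given at the same dose. NDC80 had 3.88 and 4.77 CPM with T4, against 2.40 and 2.62 CPM with T3 (0.79, SE 0.18, edgeR adjusted p = 0.00838). CENPA had 6.22 and 6.71 CPM with T4, against 4.19 and 3.32 CPM with T3 (0.78, SE 0.15, edgeR adjusted p = 0.00275), and UBE2C 18.9 and 17.4 CPM, against 10.7 and 11 CPM (0.74, SE 0.11, edgeR adjusted p = 0.00052). The T4 libraries of each lay above the T3 libraries, and no called gene of this comparison had overlapping libraries. The kinases PLK1 (0.50, SE 0.09, edgeR adjusted p = 0.00148), CDK1 (0.34, SE 0.08, edgeR adjusted p = 0.011) and AURKB (0.38, SE 0.08, edgeR adjusted p = 0.0049) were also higher with T4, as were FOXM1 (0.46, SE 0.07, edgeR adjusted p = 0.000442), CDC20 (0.41, SE 0.09, edgeR adjusted p = 0.00591), TOP2A (0.45, SE 0.09, edgeR adjusted p = 0.00268) and ESPL1 (0.38, SE 0.09, edgeR adjusted p = 0.0104). MKI67 did not pass (0.33, SE 0.14, edgeR adjusted p = 0.131). CCNB1, at the levels given for each hormone, was the gene lower with T4 (-0.27, SE 0.08, edgeR adjusted p = 0.0354), followed by ECT2 (-0.12, 95% interval -0.27 to 0.03) and INCENP, at 25.1 and 23.2 CPM with T4 and 26.8 and 21.6 CPM with T3 (-0.00, -0.26 to 0.26), which did not pass. Calls that held without each library of the comparison numbered 11 of 30, and 19 genes were called without T3 library 1 or without T4 library 2. CCNB1 lost its call without T3 library 1 or either T4 library (adjusted p 0.000795 to 0.41 over all alternatives), CDK1 without T3 library 1 or T4 library 1 (0.00517 to 0.093), CDC20 without T4 library 1 (0.00238 to 0.0733), NDC80 without T3 library 1 or T4 library 2 (0.00502 to 0.0881) and ESPL1 without T3 library 2 or T4 library 2 (0.00462 to 0.0984).

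The T3 effect on these genes differed between the days. The test of the difference, day 19 minus day 7, passed for 40 of the 44 genes, 39 with a lower and 1 with a higher effect at day 19, where 20.9% and 17.1% of all tested genes did. The median difference was -0.77 on the log2 scale. Between the days, 21 of the 44 genes were both raised by T3 at day 7 and lowered by it at day 19, as were 322 of all 18101 tested genes (1.78%). ESPL1 differed most, by -2.05 (SE 0.10, edgeR adjusted p = 3.69e-09), then PLK1, by -1.30 (SE 0.10, edgeR adjusted p = 2.44e-07), and KIF2C, by -1.15 (SE 0.12, edgeR adjusted p = 5.12e-06). KIF2C had 10.8 and 9.02 CPM with T3 and 17.8 and 15.0 CPM in DMSO at day 19, and 85.0 and 84.1 CPM with T3 and 63.8 and 62.8 CPM in DMSO at day 7, so its order turned round between the days. CCNB1 was the gene with a higher effect at day 19 (0.46, SE 0.11, edgeR adjusted p = 0.00394), and ECT2 (0.12, SE 0.09, edgeR adjusted p = 0.326) and CENPE (-0.25, SE 0.14, edgeR adjusted p = 0.207) came next without passing. ECT2 had 63.3 and 66.4 CPM with T3 and 55 and 54.8 CPM in DMSO at day 7. CENPE had 5.63 and 6.05 CPM with T3 and 6.24 and 5.65 CPM in DMSO at day 19, and 35.4 and 36.5 CPM with T3 and 30.4 and 31.2 CPM in DMSO at day 7. ESPL1 at day 7 had 46.1 and 46.7 CPM with T3 and 39.6 and 40.4 CPM in DMSO, a small difference beside that of day 19. The calls of ESPL1, PLK1, KIF2C and CCNB1 held under every alternative. CENPF lost its call without any of the day 7 libraries, day 19 DMSO library 1 or day 19 T3 library 2 (0.00526 to 0.391), NDC80 without day 19 DMSO library 2 (0.00476 to 0.0507), NUF2 without day 19 DMSO library 1 or day 19 T3 library 1 (0.0147 to 0.121), and INCENP without DMSO library 1 of either day, day 7 T3 library 1 or day 19 T3 library 2 (0.00191 to 0.164).

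For T4 the difference passed for 11 of the 44 genes, all with a lower effect at day 19, at a background of 15.3% lower and 12.4% higher (27.7% together). The share that passed was no larger than that total. The median difference was -0.24. It depended on the scaling, at -0.09 by total counts alone, with 1 gene higher and 9 lower, and at -0.09 by limma on log2(FPKM + 0.1), with 2 higher and 8 lower. The 11 were ESPL1 (-1.65, SE 0.10, edgeR adjusted p = 6.10e-08), KIF20A (-0.80, SE 0.14, edgeR adjusted p = 0.000557), AURKA (-0.65, SE 0.11, edgeR adjusted p = 0.000481), PLK1, BUB1, ANLN, CCNA2, TOP2A, CDK1, KIF23 and CDCA8. AURKA, the kinase of the spindle poles, had 14.3 and 14.9 CPM with T4 and 18.5 and 18.5 CPM in DMSO at day 19, and 60.2 and 59.4 CPM with T4 and 46.5 and 49.8 CPM in DMSO at day 7. The upper end was CCNB1 (0.24, SE 0.11, edgeR adjusted p = 0.13), NDC80 (0.18, SE 0.19, edgeR adjusted p = 0.532) and CCNB2 (0.06, SE 0.10, edgeR adjusted p = 0.716), none of which passed. NDC80 had 25.9 and 27.3 CPM with T4 and 27.3 and 23.2 CPM in DMSO at day 7. CCNB2 had 13.7 and 14.4 CPM with T4 and 12.4 and 12.8 CPM in DMSO at day 19, and 95.6 and 92.7 CPM with T4 and 87.7 and 87.9 CPM in DMSO at day 7. CDCA8 lost its call without 6 of the 8 libraries (adjusted p 0.0253 to 0.229 over all alternatives), all but day 7 DMSO library 1 and day 19 DMSO library 1, and KIF23 without day 7 T4 library 2, day 19 DMSO library 1 or day 19 T4 library 2 (0.00783 to 0.142).

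Hepatoblast and hepatocyte markers moved with the day 19 results: 14 of 14 fell with T3 and 14 of 14 with T4, with the summed levels given at the start. The 10 mesenchymal markers summed to 3696 and 4109.6 CPM with T4, 2732 and 3603 CPM with T3 and 7015 and 6825 CPM in DMSO, with 7 of 10 lower and 3 higher with T3 and 6 lower and 3 higher with T4. Of the 7 intestinal markers 6 were tested, and all 6 were lower with each hormone. They summed to 756 and 979 CPM with T4, 386 and 466 CPM with T3 and 2139.9 and 1978 CPM in DMSO. Of the 10 pluripotency genes 5 were higher with T3 and 6 with T4, and none was lower. Calls were frequent among all tested genes too, at 27.3% downward and 25.1% upward under T3, and 21.9% and 21% under T4. The 7 neural markers summed to 286 and 270 CPM with T4, 338 and 306 CPM with T3 and 164 and 156 CPM in DMSO. In the same order, the 8 endoderm markers gave 226 and 236, 205 and 240, and 296 and 290 CPM. Endothelial markers, 7 in number, gave 108 and 132, 121 and 121, and 120 and 107 CPM. The part of these shifts in the changes of the mitotic genes was not tested.

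Other genes of cell division, from lists that hold none of the 44, are read against the shares of all tested genes. With T3 at day 19 these were 27.3% lower and 25.1% higher. With T4 at day 19 they were 21.9% and 21%, and with T3 at day 7 they were 6.54% and 9.43%. Of 18 other G2/M regulators, 10 were lower and 3 higher with T3 at day 19 (median -0.33) and 12 rose at day 7 (median 0.29). CKS2, a small subunit of CDK complexes, had 77.8 and 68.5 CPM with T3, against 26.7 and 25.5 CPM in DMSO at day 19 (1.49, SE 0.08, edgeR adjusted p = 8.35e-10). WEE1, the kinase that holds CDK1 inactive, had 124 and 110.1 CPM with T3, against 57.4 and 56.3 CPM in DMSO (1.04, SE 0.07, edgeR adjusted p = 5.89e-09). Both also rose with T4, by 0.95 and 0.58 on the log2 scale. CCNF and CDC25A had the smallest p of this list with T3 at day 7, with log2 fold changes of 0.42 and 0.42. At day 19 T3 lowered 8 and raised 3 of 26 other kinetochore and checkpoint genes, and lowered 6 and raised 2 of 20 other spindle and cytokinesis genes. SPAG5, which encodes the spindle protein astrin, had 32.3 and 42.4 CPM with T3, against 141 and 135 CPM in DMSO (-1.88, SE 0.10, edgeR adjusted p = 7.28e-10), close in size to the fall of ESPL1, and it fell by 1.24 on the log2 scale with T4. KIF22, a chromokinesin, fell by 0.85 with T3 and by 0.81 with T4 on the same scale. Of 18 condensin and cohesin genes 7 were lower and 1 was higher with T3 at day 19, and of 17 subunits and partners of the anaphase promoting complex 6 fell and 3 rose.

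Among 21 genes of the MuvB, DREAM, E2F and NF-Y factors, 5 were higher and 4 lower with T3 at day 19. Over all tested genes the shares were 25.1% higher and 27.3% lower with T3 at day 19, and 21% and 21.9% with T4. The shares of the 21 factor genes were thus no larger than the background with T3. MYBL2, which encodes B-MYB, had 39.0 and 36.1 CPM with T3, against 77.5 and 78.3 CPM in DMSO at day 19 (-1.05, SE 0.07, edgeR adjusted p = 8.79e-09). At day 7 it had 119.9 and 122 CPM with T3, against 92.4 and 91.0 CPM in DMSO (0.40, SE 0.06, edgeR adjusted p = 0.000507), the same turn as PLK1 showed. E2F4, the E2F of the DREAM complex, rose at day 19 by 0.91 on the log2 scale with T3 and 0.73 with T4. Of 7 CDK inhibitors, 3 rose and 1 fell with each hormone at day 19. CDKN1A, which encodes p21, had 1345 and 1216 CPM with T4, 1499.8 and 1461 CPM with T3 and 609 and 651 CPM in DMSO at day 19. At day 7 it had 16.6 and 15.5 CPM with T4, 22.0 and 22.2 CPM with T3 and 11 and 12.0 CPM in DMSO, far below any day 19 library. Its log2 fold change with T3 was 1.23 (SE 0.06, edgeR adjusted p = 4.12e-10) at day 19 and 0.94 (SE 0.09, edgeR adjusted p = 7.09e-06) at day 7, so it rose with T3 on both days. CDKN2B, which encodes p15, rose by 0.66 on the log2 scale with T3 and 0.45 with T4 at day 19. Of 8 G1 cyclins and kinases 5 rose and 2 fell with each hormone at day 19, and CCNE1, cyclin E1, had 202 and 159 CPM with T3, against 47.9 and 44.6 CPM in DMSO (1.96, SE 0.10, edgeR adjusted p = 3.72e-10).

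The 41 DNA replication and S phase genes resembled the mitotic genes at day 7 and differed in their counts at day 19. With T3 at day 7, 27 of the 41 rose and none fell (median 0.34), and with T4 18 rose and none fell. Among all tested genes 9.43% rose with T3 and 3.9% with T4 at that day. At day 19 with T3, 8 rose and 9 fell (median -0.04), where 25.1% of all tested genes rose and 27.3% fell. With T4 at day 19, 14 rose and 2 fell, where 21% of all tested genes rose and 21.9% fell. The helicase gene MCM7 had 94.8 and 83.7 CPM with T3, against 45.0 and 47.9 CPM in DMSO at day 19 (0.94, SE 0.07, edgeR adjusted p = 4.97e-08), and the origin licensing gene CDC6 20.3 and 19.4 CPM, against 11.8 and 10.7 CPM (0.82, SE 0.08, edgeR adjusted p = 1.18e-06). Between the days in DMSO, 39 of the 41 fell and 1 rose, with a median of -1.26, where 34.9% of all tested genes fell and 37.6% rose. The difference between the 2 lists was not tested.

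Some counts may be shared with neighbours, since the strand used in counting is not given in the sources used here. Among the 44 genes, those overlapped by exons on the opposite strand include CCNA2 (EXOSC9), CDC25C (FAM53C), PLK1 (ERN2), NUF2 (RGS5), KIF20A (BRD8 and CDC23), KIF4A (PDZD11), PRC1 (PRC1-AS1), HMMR (HMMR-AS1) and FOXM1 (ITFG2), and exons on the same strand overlap BUB1B (BUB1B-PAK6) and CENPA (SLC35F6). CCNB1 (chr5:69167150-69178245), ECT2 (chr3:172750726-172829265) and ESPL1 (chr12:53268299-53293638), all on the plus strand of GRCh38.p14, had no such overlap with a gene in the files.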

How the data were processed

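Per the submitters' processing notes, the authors used HISAT, Bowtie2 and RSEM with the hg38 build, and versions are not given in the sources used here. The deposited tables hold, per transcript, expected counts (reads assigned by RSEM, not normalised) and FPKM, which the authors scaled to length and to mapped reads. Both were summed per Entrez gene, and expected counts were rounded to whole numbers (pandas 2.3.3, numpy 2.4.6, Python 3.11.15). Symbols and promoters came from RefSeq for GRCh38.p14, which matched 23801 of the 23922 genes, and the 121 others held 0.103% to 0.145% of a library. Tests used edgeR 4.0.16 in R 4.3.3: filterByExpr, TMM, and a quasi-likelihood fit of all 12 libraries with 6 group means. A gene was called at a two-sided Benjamini-Hochberg adjusted p of at most 0.05 over 18101 genes, and the SE of a log2 fold change was its size over the square root of F. "Rose" and "fell" are used of called genes only. Spread was shared over all groups (6 residual degrees of freedom), although libraries of a group differed more at day 19 than at day 7 (chi-square per gene 4.96 to 8.63, against 1.58 to 2.10). Intervals cover this spread only.

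Alternatives were DESeq2 1.42.0, limma 3.58.1 on log2(FPKM + 0.1) or log2(FPKM + 1), other scalings and filters, 1 day alone, a replicate block and each library left out. Replicate numbers were not taken to pair libraries: deviations of same-numbered libraries correlated at -0.297 to 0.361, values of both signs that do not settle whether they were paired. The method was also run on simulated counts with a single spread for all libraries and changes in the day 7 T3 group alone. That simulation does not cover the greater spread between libraries at day 19. Genes with values in every library are CCNB1, CDK1, PLK1, AURKB, MKI67, TOP2A, FOXM1, CDC20 and the 3 largest and 3 smallest changes of each comparison; each other list gives counts, medians and genes with the smallest p, and ESPL1, CCNB2, ECT2, KIF2C and others are added where a result turns on them. The 44 genes, the lists and the tests were chosen with earlier results of these data known. Motifs were searched as exact letters in the RefSeq promoters. Positions count from 1 at the gene's start, with the base before it at -1.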

Additional observations from a re-analysis of the deposited data

Results flagged for a closer look

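The effect of a hormone was compared between day 19 and day 7 by a test of the difference itself. The values are differences of log2 fold changes over DMSO, day 19 minus day 7, so a negative one means a lower effect at day 19. For T3 the difference passed for 40 of the 44 genes, as given with the comparison. The deepest differences were -2.05 for ESPL1, -1.30 for PLK1, -1.15 for KIF2C, -1.13 for UBE2C, -1.13 for CCNA2, -1.09 for KIF20A, -1.06 for CDC25C and -1.0 for AURKA. Further differences were -0.97 for TOP2A, -0.95 for CENPA, -0.88 for ANLN, -0.88 for MAD2L1, -0.88 for MKI67, -0.88 for HMMR, -0.86 for DLGAP5, -0.85 for CDK1, -0.84 for SPC24, -0.83 for BIRC5, -0.80 for KIF23, -0.79 for BUB1B, -0.78 for NDC80, -0.78 for KIF11 and -0.77 for BUB1. The smaller ones were -0.71 for ASPM, -0.69 for CDC20, -0.69 for KIF4A, -0.67 for CDCA5, -0.67 for PRC1, -0.66 for AURKB, -0.64 for PTTG1, -0.63 for NUSAP1, -0.62 for NUF2, -0.60 for CCNB2, -0.57 for CDC25B, -0.56 for TPX2, -0.56 for FOXM1, -0.51 for INCENP, -0.50 for CDCA8 and -0.48 for CENPF. CCNB1 was the gene with a positive difference, at 0.46. Of the 40 calls, 36 held without each of the 8 libraries of the comparison.

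For T4 the difference passed for 11 of the 44 genes, a share no larger than the 27.7% of all tested genes that passed in either direction. The differences that passed were -1.65 for ESPL1, -0.80 for KIF20A, -0.65 for AURKA, -0.63 for PLK1, -0.63 for BUB1, -0.56 for ANLN, -0.55 for CCNA2, -0.52 for TOP2A, -0.46 for CDK1, -0.43 for KIF23 and -0.35 for CDCA8. Of these, 9 held without each of the 8 libraries. No other library or value of these genes was singled out, since groups of 2 are too small for a test of outlying libraries.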

How the results depend on the processing

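Of the recomputed counts of called genes, 202 were within 1.5 times the value reported and 24 were not, and no named gene that passed the test changed sign under any alternative run. Of 43 named values that did not pass, 13 changed sign under at least 1 alternative. For T3 at day 7, in place of 28 genes, limma called 16 on log2(FPKM + 0.1), 18 on log2(FPKM + 1) and 15 without a filter, and leaving out 1 library gave 14 to 30. For T4 at day 7, in place of 15, DESeq2 called 7, total counts alone 9, limma 4, 8 and 4, and the libraries of day 7 alone 33, with 4 to 20 when 1 library was left out. T4 against T3 at day 7 gave 3 lower genes, in place of 0, with the libraries of the day alone. For T4 at day 19, in place of 12, DESeq2 called 7 and the libraries of the day alone 5, with 7 to 12 when 1 library was left out. T4 against T3 at day 19 gave 13, in place of 30, with the day alone and 19 to 31 when 1 library was left out. The causes were not tested. Each range given for leaving out 1 library covers all 12 libraries. Within a day, the low end came from libraries of the comparison itself and the high end from libraries outside it. Leaving out 1 library gave 29 to 36 for T3 at day 19, 43 between the days in DMSO, 44 with either hormone, 37 to 40 for the difference of the T3 effect and 9 to 14 for that of T4.

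The direction of calls with T4 at day 19 depended on scaling: 4 higher and 8 lower with TMM, 8 and 3 by total counts alone, and 9 and 4, 8 and 4, and 8 and 3 by limma. Total counts alone shifted the median of all genes by -0.40, -0.35 and -0.28 between the days in DMSO, T3 and T4, by 0.13 for T4 at day 19 and by 0.15 for the difference of the T4 effect. The share of calls over all genes that were higher then moved to 47.9%, against 59.0%, for T3 at day 7, to 66.1%, against 48.9%, for T4 at day 19, and to 33.1%, against 51.9%, between the days in DMSO. With the replicate number as a block, a pairing that the check did not settle, 26 genes were called for T3 and 13 for T4 at day 7. At day 19, 36 were called for T3 and 12 for T4. For T4 against T3, 0 were called at day 7 and 30 at day 19. Between the days 43, 44 and 44 were called in DMSO, T3 and T4. For the differences of the T3 and T4 effects the numbers were 40 and 11. Depth limits the genes lowest at day 19, such as NDC80, with 40 to 84 counts per library.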
